A study of Arabidopsis with 12 samples.

Results

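AT1G60590 and AT2G15880 are 2 of the 16548 Arabidopsis genes whose mRNA could be assigned to a single locus on the arrays of this study. AT1G60590 belongs to the family of polygalacturonase-type pectin-degrading enzymes, and AT2G15880 to the leucine-rich repeat extensins, proteins that join a leucine-rich repeat domain to an extensin-like tail. The genes were chosen from their own levels in the 4 groups of arrays, for the genotype in which each is higher under water deficit. Their levels and differences are therefore given as a description, with standard errors and intervals but with no test. Both genes had 1 probe set each, and both lay above the level that a filter on dim genes would remove.

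The samples were whole seedlings harvested at 8 days of age, after 5 days of growth at 22 °C and then 72 h on 1 of 2 media. The 4 groups, with 3 arrays each, were tori 35-7 on water-deficit medium (2.0% agar), tori 35-7 on control medium (0.8% agar), Col-0 on water-deficit medium and Col-0 on control medium. Col-0 is the standard laboratory accession of Arabidopsis. The labels say nothing more of tori 35-7, such as its mutation, transgene or number of lines. TOR, named in the title of the series, is a protein kinase that adjusts growth to the supply of nutrients and energy. No agent other than the agar content of the medium is named, and all 4 groups shared the same growth and transfer.

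Pectin is the gel-like polysaccharide of the primary cell wall. Polygalacturonases and pectate lyases cut its backbone, while pectin methylesterases remove methyl groups and so set how far the backbone can be cut or cross-linked by calcium. Extensins are hydroxyproline-rich glycoproteins that form a network in the wall. Leucine-rich repeat extensins bind peptides of the RALF family and act with the receptor kinase FERONIA in sensing the state of the wall, and a suppressor of a root hair mutant in this family has been linked to the TOR pathway. Several members of both families are known for expression in pollen, which seedlings do not have.

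The values are log2 probe set levels as deposited, so a difference of 1 is a 2-fold difference. The median over all probe sets lay between 3.06 and 3.19 on the 12 arrays. The first Col-0 water-deficit array and the first tori 35-7 control array stood apart by a narrow spread of values, with interquartile ranges of 2.56 and 2.68, against up to 3.08 on the others. The differences of AT1G60590 and AT2G15880 are given with and without these arrays. Seedlings were measured in bulk, so a change in the number of cells that express a gene and a change in RNA per cell cannot be told apart. Whether the 3 replicates of a group were grown separately is not stated, so the p-values cover only the spread seen among these arrays, which may be technical.

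AT1G60590, the pectin enzyme gene, was high on the Col-0 water-deficit arrays only, among the 4 groups measured. In tori 35-7 under water deficit its level was 3.73, 3.86 and 3.58 on the 3 arrays. On control medium tori 35-7 had levels of 3.60, 3.04 and 3.20. The Col-0 water-deficit arrays gave 4.87, 5.18 and 5.37, and the Col-0 control arrays 3.21, 3.69 and 3.08. The lowest Col-0 water-deficit array thus lay above every array of the other 3 groups, whose ranges overlapped each other. The group means in rising order were 3.28 ± 0.29 in tori 35-7 controls, 3.32 ± 0.32 in Col-0 controls, 3.72 ± 0.14 in tori 35-7 under water deficit and 5.14 ± 0.25 in Col-0 under water deficit (SD, n = 3 each). The control groups of the genotypes did not differ beyond their spread, and the difference between the media in tori 35-7 is given below with its interval. The means of the 3 lower groups stood near the array medians of 3.06 to 3.19. With no detection call, levels that low may be partly background.

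AT2G15880, the leucine-rich repeat extensin gene, was highest in tori 35-7 under water deficit. There the 3 arrays gave levels of 6.61, 6.58 and 6.86, against 4.77, 5.18 and 5.28 in tori 35-7 controls. The Col-0 water-deficit arrays gave 4.47, 5.35 and 6.07, against 4.11, 4.63 and 4.30 in Col-0 controls. The tori 35-7 water-deficit arrays lay above all others, and the tori 35-7 controls lay above the Col-0 controls by a gap of 0.14 between the nearest arrays. The Col-0 water-deficit group was spread out, with an SD of 0.80, and overlapped both control groups. The group means in rising order were 4.35 ± 0.26 in Col-0 controls, 5.08 ± 0.27 in tori 35-7 controls, 5.30 ± 0.80 in Col-0 under water deficit and 6.68 ± 0.15 in tori 35-7 under water deficit (SD, n = 3 each). The tori 35-7 controls and the Col-0 water-deficit group did not differ beyond their spread.

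**Figure D1:**
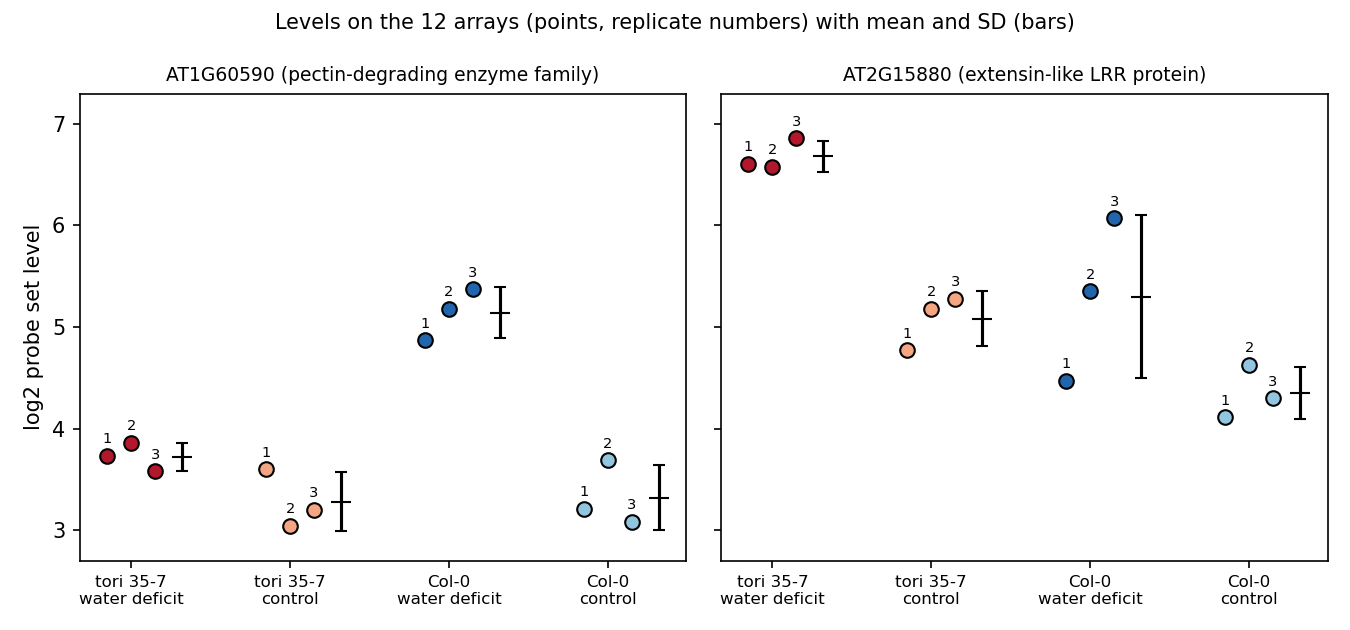
Log2 probe set level of AT1G60590 (left) and AT2G15880 (right) on the 12 arrays, by group, with points for single arrays numbered by replicate and bars for the mean and SD of 3 arrays. AT1G60590 stands apart in Col-0 under water deficit (mean 5.14), and AT2G15880 is highest in tori 35-7 under water deficit (mean 6.68) and widely spread in Col-0 under water deficit (4.47 to 6.07).

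For AT1G60590 the difference between water deficit and control was 0.44 ± 0.19 in tori 35-7 (log2 ± SE, 95% interval 0.03 to 0.85), a 1.36-fold higher level with overlapping groups. In Col-0 it was 1.82 ± 0.19 (interval 1.41 to 2.23), a 3.53-fold higher level, and the groups did not overlap. Groups apart in that direction were seen for 7.26% of all genes in Col-0, and for 11.1% of all genes in tori 35-7. The Col-0 difference was the 10th most positive of the 16548 genes and the tori 35-7 difference the 635th. The response in tori 35-7 minus that in Col-0 was -1.38 ± 0.27 (interval -1.96 to -0.80).

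Between genotypes, the AT1G60590 difference lay on the water-deficit medium. Under water deficit, tori 35-7 minus Col-0 was -1.42 ± 0.19, a level 0.37-fold that of Col-0, with groups apart (8.05% of all genes had groups apart with tori 35-7 lower). On control medium tori 35-7 minus Col-0 was -0.04 ± 0.19, with an interval of -0.45 to 0.37, and its sign was not settled: it was 0.14 without the second Col-0 control array and 0.08 without the second tori 35-7 control array. Without the 2 arrays of narrow spread the water-deficit differences were 0.60 ± 0.17 in tori 35-7 and 1.95 ± 0.17 in Col-0, and the first minus the second was -1.35 ± 0.24. Tori 35-7 minus Col-0 was then -1.55 ± 0.17 under water deficit and -0.20 ± 0.17 on control medium. With each of the 12 arrays left out in turn the water-deficit differences ranged over 0.32 to 0.60 in tori 35-7 and over 1.69 to 2.00 in Col-0, so no single array carried the contrast between genotypes.

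For AT2G15880 water deficit minus control was positive in both genotypes. In tori 35-7 it was 1.61 ± 0.29 (interval 0.98 to 2.24), a 3.05-fold higher level and the 9th most positive difference of all genes. The groups were apart there, as for 11.1% of all genes in that direction. In Col-0 the difference was 0.95 ± 0.29 (interval 0.32 to 1.58), a 1.94-fold higher level and the 53rd most positive, but the groups overlapped. The response in tori 35-7 minus that in Col-0 was 0.65 ± 0.42, and its interval of -0.24 to 1.54 included 0. These values do not place the water-deficit difference of AT2G15880 in tori 35-7 alone, although the pair was picked as a contrast of genotypes.

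The size of the AT2G15880 response in Col-0 depended on single arrays. It was 1.37 without the first Col-0 water-deficit array, which is the array of narrowest spread, and 0.57 without the third. The response in tori 35-7 minus that in Col-0 was 0.24 without the first of them and 1.04 without the third. Without both arrays of narrow spread, the responses were 1.45 ± 0.20 in tori 35-7 and 1.37 ± 0.20 in Col-0, and the difference between them was 0.08 ± 0.28. The tori 35-7 response, by contrast, stayed between 1.45 and 1.71 with each of the 12 arrays left out in turn.

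The AT2G15880 difference that was present on both media was the one between genotypes. Under water deficit tori 35-7 minus Col-0 was 1.38 ± 0.29 (interval 0.75 to 2.01), a 2.61-fold higher level and the 9th most positive of all genes. On control medium it was 0.73 ± 0.29 (interval 0.10 to 1.36), a 1.66-fold higher level and the 79th most positive. The groups did not overlap on either medium, as for 8.61% of all genes under water deficit and 7.86% on control medium in that direction. Without the 2 arrays of narrow spread the differences were 0.97 ± 0.20 under water deficit and 0.88 ± 0.20 on control medium. The water-deficit value was 0.97 without the first Col-0 water-deficit array and 1.77 without the third.

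**Figure D2:**
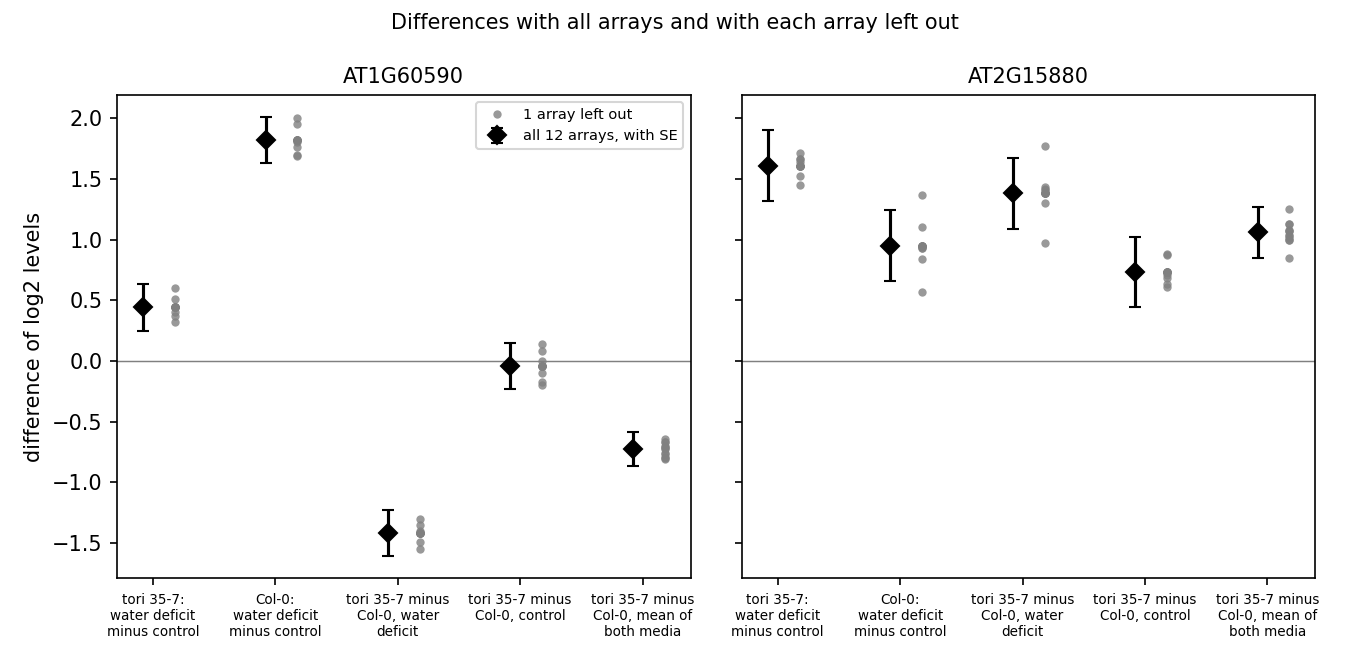
Differences of log2 levels of AT1G60590 (left) and AT2G15880 (right) in 5 contrasts, with black diamonds and bars for the value and SE of the fit to all 12 arrays and grey points for the fits with 1 array left out. For AT2G15880 the Col-0 response spans 0.57 to 1.37 among the grey points and the tori 35-7 response 1.45 to 1.71.

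Over the 12 arrays the correlation between AT1G60590 and AT2G15880 was 0.198 (Pearson) and 0.350 (Spearman), a value bound up with their choice as genes highest in different groups. In deviations from the group means, which share array effects, it was 0.390. The members' nearest protein-coding neighbours in the RefSeq annotation of assembly TAIR10.1 are AT1G60570 and ABC4 for AT1G60590 on chromosome 1, and AT2G15860 and MEE14 for AT2G15880 on chromosome 2. No coordinates are given because the build of the array annotation is not given in the sources used here.

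The genes with levels most like AT1G60590 over the 12 arrays were CP1 (AT4G36880), a cysteine proteinase, with a Pearson correlation of 0.933, and COR47 (AT1G20440), a dehydrin of the cold and drought responses, with 0.930. They were followed by ECS1 (AT1G31580), a cell wall protein, with 0.929, AT1G47400 with 0.924 and AT4G26555 with 0.917. CP1 was higher under water deficit than on control medium by 0.26 in tori 35-7 and by 1.13 in Col-0 (log2). AT1G47400 was higher by 0.84 in tori 35-7 and by 1.84 in Col-0, about the Col-0 difference of AT1G60590 itself. COR47 had the same order of groups with small differences, 0.08 in tori 35-7 and 0.26 in Col-0. A shared order of groups follows from picking genes by this correlation and is no added result. All 5 genes were among the 50 most like AT1G60590 by rank correlation too, but none was among the 50 most alike in deviations from the group means. The correlations of those deviations were 0.724 for COR47, 0.693 for ECS1, 0.572 for AT4G26555, 0.062 for CP1 and -0.055 for AT1G47400.

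The genes most like AT2G15880 were AT1G19330 and AT1G27210, both with a correlation of 0.972, AT2G22080 with 0.966, AT2G35260 with 0.961 and AT3G13000 with 0.959. Water deficit minus control was positive for each of them in both genotypes, between 0.45 and 0.70 in tori 35-7 and between 0.25 and 0.55 in Col-0. Genes picked by this correlation share the direction of AT2G15880 through the choice, so that direction is no added result. Each of them differed by less than AT2G15880 in either genotype. Their correlations of deviations from the group means lay between 0.764 and 0.897, and none of the 5 was among the 50 genes most alike in that measure.

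**Figure D3:**
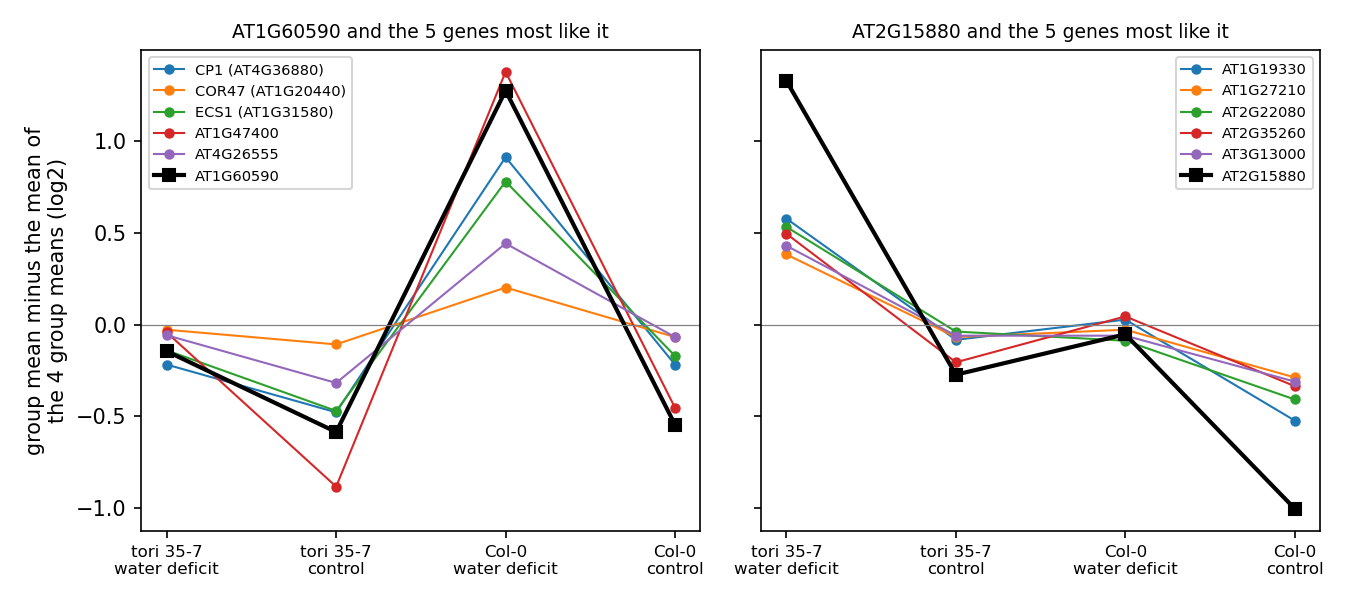
Group means of each member (black squares) and of the 5 genes most like it over 12 arrays (coloured points), as differences from the mean of the 4 group means on the log2 scale. The lines only join the points of a gene. The genes on the left peak in Col-0 under water deficit, those on the right in tori 35-7 under water deficit.

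The rest of the pectin and extensin machinery was examined with 8 lists of loci drawn up from general knowledge of the families, of which 7 had measured genes. The lists were chosen with earlier results of these data known. Together they held 133 measured genes beside the pair, and these genes were tested with limma across all 16548 genes, with a threshold of 0.05 on the adjusted p. In tori 35-7, 2 of the 133 (1.5%) fell under water deficit and 0 rose, where 1.16% of all genes passed. In Col-0, 1 of the 133 (0.752%) rose and 0 fell, where 1.23% of all genes passed. The median difference of the 133 was 0.02 in tori 35-7 and 0.08 in Col-0, beside 0.01 for all genes in both. Shares this close to those of all genes are no result about the lists. Each call of one of the 133 genes named here also passed without the 2 arrays of narrow spread.

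None of the other measured polygalacturonases passed in the 5 comparisons. The other 56 had water-deficit differences between -0.46 and 0.73 in tori 35-7 and between -0.59 and 0.72 in Col-0, and at an unadjusted limma p under 0.05 there were 5 in each genotype. Of all genes 9.55% in tori 35-7 and 12.9% in Col-0 had such a p. AT1G60590, at 1.82 in Col-0, lay beyond that range, but it was chosen from these levels. Its place there is therefore no test of a difference from its relatives. Many of the 56 also had low levels that may be background, such as AT2G40310 with group means of 1.58 to 1.80. Of these 56, 21 were above 0 in the interaction of genotype and medium, and none had an unadjusted limma p under 0.05 there, where 6.08% of all genes did. AT3G15720 and AT3G57790 were higher in tori 35-7 when the genotypes were compared over both media together, a contrast added after the data were seen. AT3G15720 averaged 5.57 ± 0.22 in tori 35-7 under water deficit and 5.95 ± 0.13 in its controls, against 5.17 ± 0.07 and 5.29 ± 0.20 in Col-0 on the same media (SD, n = 3 each). Its difference was 0.53 ± 0.10 (limma, adjusted p = 0.0135). AT3G57790, chosen for mention after its values were seen, differed by 0.56 ± 0.13 (limma, adjusted p = 0.0271), and the call was lost without the second Col-0 control, the third Col-0 water-deficit, the second tori 35-7 control, the third tori 35-7 control, or the first or second tori 35-7 water-deficit array. In that averaged contrast 4 of the 133 (3.01%) passed, all higher in tori 35-7, where 2.88% of all genes passed.

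Of the 23 pectate lyases measured, AT3G53190 rose in Col-0. Its mean level was 7.13 ± 0.02 under water deficit and 6.70 ± 0.10 on control medium in tori 35-7, and 6.88 ± 0.25 and 6.28 ± 0.07 on those media in Col-0 (SD, n = 3 each). The response was 0.42 ± 0.14 in tori 35-7 (limma, adjusted p = 0.221) and 0.60 ± 0.14 in Col-0 (limma, adjusted p = 0.0473). The Col-0 call held in 2 of the 12 fits with 1 array left out, those without the first Col-0 water-deficit array and without the first tori 35-7 control array, and the adjusted p reached 0.177 in the others. AT5G48900 was higher in tori 35-7 over both media by 0.52 ± 0.12 (limma, adjusted p = 0.0345), a call kept by the fits without the first Col-0 control array or without the first or second Col-0 water-deficit array and lost in the other 9.

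The clearest change among the other wall genes was that of AT4G02330 (ATPMEPCRB), a pectin methylesterase. Its arrays gave 4.56, 4.66 and 4.65 in tori 35-7 under water deficit, against 6.04, 5.68 and 5.42 in tori 35-7 controls, and 4.48, 4.55 and 4.25 in Col-0 under water deficit, against 4.75, 4.53 and 5.03 in Col-0 controls. The tori 35-7 controls were thus high, and the other 3 groups lay close together. Under water deficit AT4G02330 fell in tori 35-7, with a log2 difference of -1.09 ± 0.17 (limma, adjusted p = 0.00521), a call kept in all 12 fits with 1 array left out. In Col-0 its difference was -0.35 ± 0.17 (limma, adjusted p = 0.418), and the interaction of -0.74 ± 0.24 did not pass (limma, adjusted p = 0.768). On control medium it was higher in tori 35-7 than in Col-0 by 0.94 ± 0.17 (limma, adjusted p = 0.0284), where 0.568% of all genes passed, a call kept without any 1 Col-0 water-deficit array or without the third control array of either genotype and lost in the other 7 fits. Over both media together it was higher in tori 35-7 by 0.57 ± 0.12 (limma, adjusted p = 0.0194), and this call was lost without the first or second Col-0 control, the second tori 35-7 water-deficit or the third tori 35-7 water-deficit array.

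AT3G49220, also of the 17 measured pectin methylesterases and inhibitors, fell in tori 35-7 under water deficit, with a difference of -0.59 ± 0.13 (limma, adjusted p = 0.0351). Its difference in Col-0 was -0.37 ± 0.13 (limma, adjusted p = 0.195). The tori 35-7 call was kept by the 3 fits that left out a Col-0 water-deficit array and lost in the other 9. None of the 16 listed genes of pectin synthesis could be examined, as none had an annotated probe set of its own here.

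Among the leucine-rich repeat extensins, which anchor wall sensing at the cell surface, 7 were measured beside AT2G15880. Their water-deficit differences lay between -0.36 and 0.15 in tori 35-7 and between -0.38 and 0.26 in Col-0, none passed the limma test, and 1 in each genotype had an unadjusted p under 0.05, as did 9.55% of all genes in tori 35-7 and 12.9% in Col-0. AT3G24480, a family member, gave levels of 7.77, 7.42 and 7.63 in tori 35-7 under water deficit and 8.11, 7.83 and 7.97 in its controls, a difference of -0.36 ± 0.13 (limma, adjusted p = 0.325). Its Col-0 difference was -0.07 ± 0.13. Averaged over both media, tori 35-7 minus Col-0 lay between -0.13 and 0.08 for these 7, where AT2G15880 had 1.06 ± 0.21. AT2G15880 lay outside the ranges of these 7 in the responses of both genotypes and between the genotypes, but it was chosen from these levels. Its place there is therefore no test of a difference from its relatives. Some of the 7 had low levels that may be background, such as AT3G19020 with group means of 1.87 to 1.91.

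The 14 classical extensins gave 0 calls by limma in the 5 comparisons. Under water deficit their median difference was -0.00 in tori 35-7 and 0.35 in Col-0, beside an all-gene median of 0.01 in both. Of the 14, 7 were above 0 in tori 35-7 and 11 in Col-0. At an unadjusted p under 0.05 there were 2 in tori 35-7 and 5 in Col-0, beside 9.55% and 12.9% of all genes. In the interaction their median was -0.39, with 2 of 14 above 0, beside an all-gene median of 0.00. There 2 of 14 had an unadjusted limma p under 0.05, beside 6.08% of all genes. The shift of the list as a whole was not tested. AT2G43150, for example, differed by -0.11 ± 0.15 in tori 35-7 and by 0.43 ± 0.15 in Col-0, and AT4G08370 by -0.40 ± 0.13 in tori 35-7 and by 0.41 ± 0.13 in Col-0. The interaction for AT4G08370 was -0.82 ± 0.19 (limma, adjusted p = 0.646). Its group means lay between 1.83 and 2.32, low levels that may be background. AT4G08410 was the nearest to a call, with tori 35-7 minus Col-0 under water deficit at -1.05 ± 0.27 (limma, adjusted p = 0.0836). Several of these extensins lie in tandem and share repeats, so their probe sets may not tell them apart, and the same may hold for close relatives among the polygalacturonases.

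Genes that act beside the leucine-rich repeat extensins gave 0 calls by limma as well. Among 11 RALF peptides and receptors of the FERONIA family, 0 had an unadjusted p under 0.05 in the response to water deficit of either genotype. Of all genes 9.55% in tori 35-7 and 12.9% in Col-0 had such a p. Between the genotypes under water deficit 1 of the 11 had one, beside 12.8% of all genes. With so few genes these counts are no result about the list. The receptor gene FER differed by 0.06 ± 0.19 in tori 35-7 and by -0.39 ± 0.19 in Col-0. The 1 gene between the genotypes was FER as well, with tori 35-7 minus Col-0 at 0.56 ± 0.19 (limma, adjusted p = 0.2). Its groups were apart, as for 8.61% of all genes in that direction. Its lowest array was the first Col-0 water-deficit one, at 6.59 against 7.56 and 7.26 in that group. Without the 2 arrays of narrow spread FER differed by -0.12 ± 0.12 under water deficit in Col-0, and by 0.28 ± 0.12 between tori 35-7 and Col-0. Among 5 genes of extensin hydroxylation and glycosylation, 0 in tori 35-7 and 1 in Col-0 had an unadjusted p under 0.05, beside the same 9.55% and 12.9% of all genes. That 1 was AT3G01720, at -0.44 ± 0.18 in Col-0 (limma, adjusted p = 0.322).

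**Figure D4:**
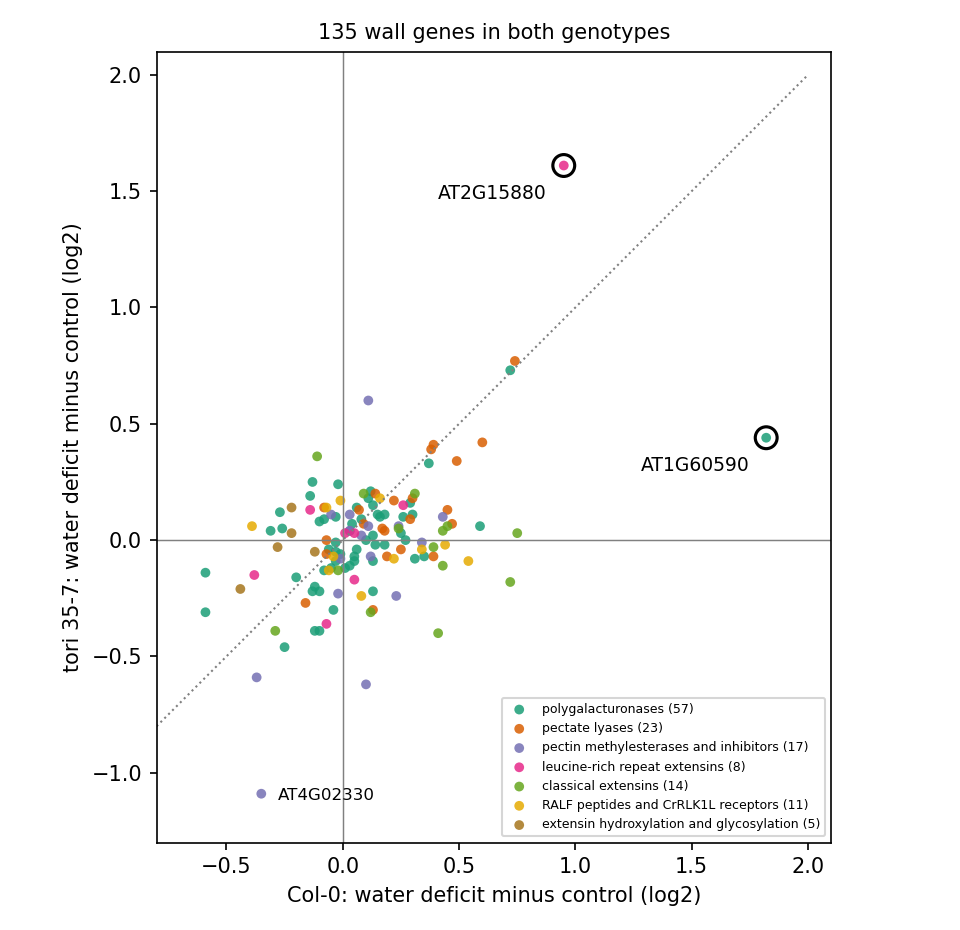
Water deficit minus control (log2) in tori 35-7 (vertical axis) against Col-0 (horizontal axis) for 135 wall genes, coloured by list, with AT1G60590 and AT2G15880 circled and equal responses on the dotted line. The pair, chosen from these levels, lies outside the cloud of the other 133 genes. Their Col-0 responses end at 0.75 and their tori 35-7 responses at 0.77, and AT4G02330 has the lowest tori 35-7 value, -1.09.

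Across the comparisons of genotypes, 0 of the 133 other wall genes passed under water deficit, where 0.822% of all genes did, and 15 had an unadjusted limma p under 0.05, as did 12.8% of all genes. On control medium 1 passed, AT4G02330. For the interaction, 1 gene of the 16548 passed (0.00604%) and none of the 133 did, with 4 of the 133 at an unadjusted limma p under 0.05, beside 6.08% of all genes.

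Markers of cell types that express members of these families were read beside the pair. Of 10 pollen markers 6 were measured and 0 were called in any comparison. Several lay near the 25th percentile of gene levels, 2.23, such as AT5G07410 with group means of 2.02 to 2.28. Such levels may be background, so the lack of calls says little. The log2 of the summed linear levels of the 6 was 4.83 to 5.08 in tori 35-7 under water deficit and 4.89 to 5.36 in tori 35-7 controls. In Col-0 it was 5.09 to 5.39 under water deficit and 4.91 to 5.27 in controls. Only 2 of 7 root hair markers were measured, EXPA7 and EXPA18, with 0 calls. The log2 of their summed linear levels was 4.73 to 4.92 in tori 35-7 under water deficit and 4.67 to 4.83 in its controls. In Col-0 it was 4.89 to 4.99 under water deficit and 4.82 to 4.93 in controls. No xylem marker could be read.

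Of 11 green tissue markers 3 were measured, and 1 of them, LHCB4.2, rose under water deficit in both genotypes, as AT2G15880 was higher in both. The log2 of the 3 markers' summed linear levels was 10.40 to 10.58 in tori 35-7 under water deficit and 9.88 to 10.03 in tori 35-7 controls. In Col-0 it was 9.67 to 10.07 under water deficit and 9.73 to 9.96 in controls. The summed level was thus highest in tori 35-7 under water deficit, and the 2 Col-0 groups overlapped. LHCB4.2 (AT3G08940), a protein of the photosystem antenna, rose by 1.08 ± 0.15 in tori 35-7 (limma, adjusted p = 0.00271) and by 0.71 ± 0.15 in Col-0 (limma, adjusted p = 0.0372). Under water deficit it was higher in tori 35-7 than in Col-0 by 0.88 ± 0.15 (limma, adjusted p = 0.0198). LHCB4.1 (AT5G01530), of the same antenna, differed between the media by 0.52 ± 0.14 in tori 35-7 (limma, adjusted p = 0.104) and by 0.48 ± 0.14 in Col-0 (limma, adjusted p = 0.12). PSAE-1 (AT4G28750), a photosystem subunit, differed by 0.52 ± 0.16 in tori 35-7 (limma, adjusted p = 0.187) and by -0.08 ± 0.16 in Col-0 (limma, adjusted p = 0.896). As given above, 1.16% of all genes passed in tori 35-7 and 1.23% in Col-0. Without the 2 arrays of narrow spread LHCB4.2 rose by 1.16 ± 0.15 in tori 35-7 and by 0.62 ± 0.15 in Col-0, and LHCB4.1 then passed in Col-0 at 0.59 ± 0.13 (limma, adjusted p = 0.0297). PSAE-1 had group means between 9.54 and 10.15, LHCB4.1 between 6.98 and 7.89 and LHCB4.2 between 4.55 and 6.14. The summed level was therefore mostly that of PSAE-1. The green tissue markers, like the other lists, were chosen with earlier results of these data known, so their p-values are no independent test. The part of green tissue in the differences of AT2G15880 was not tested.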

How the data were processed

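Total RNA of whole Arabidopsis seedlings was hybridised to 12 Affymetrix arrays, 3 for each of 4 groups named by genotype and medium in the labels. Per the labels' protocols, 100 ng of RNA was labelled with biotin. The deposited table gives a log2 level for each of 38408 probe sets on each array, between 1.13 and 13.2. That the scale is log2 was taken from this range. Per the submitters' processing notes, Transcriptome Analysis Console 4.0.1 produced the values. The methods of background correction and normalization and the genome build are not given in the sources, and the table carries no detection call, so a low level may be background.

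The array annotation gives 16722 probe sets 1 gene and 759 several, and those with several were left out. Where a gene had more than 1 probe set (148 of the 16548 genes) the brightest stood for it, and 16505 genes matched RefSeq (TAIR10.1). In R 4.3.3, lmFit and eBayes of limma 3.58.1 fitted the 4 group means over the 12 arrays. Adjusted p-values are two-sided, Benjamini-Hochberg over the 16548 genes. The steps were tested on simulated data.

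The members, gene lists and comparisons were chosen with earlier results of these data known. No p is given for the members, whose levels chose them, although one had been planned for the genotype contrasts. The genotype contrast averaged over both media was added after the data were seen. Named are members of a list past the threshold in any of the 5 planned comparisons, up to 3 of each list with the smallest unadjusted p, and the 5 genes with the highest Pearson correlation to each member. The part of that rule on protein sequence was not applied. Alternatives were quantile normalization, median centring, leaving out genes up to the 25th percentile of level, a trend with robust priors, averaging the probe sets of a gene, array weights, the 6 arrays compared, a replicate block, all probe sets, each array left out, and leaving out the 2 arrays of narrowest spread. No 2 arrays held identical values, and the number of arrays limits the precision.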

Additional observations from a re-analysis of the deposited data

How the results depend on the processing

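Of the member values, the AT2G15880 response in tori 35-7 minus that in Col-0 moved most, from 0.65 to 0.15 with array weights and to 0.08 without the 2 arrays of narrowest spread. Counts of genes past the threshold depended on the setting, and the cause was not tested. With array weights there were 668 for water deficit in tori 35-7, 311 for water deficit in Col-0, 2 for the interaction, 231 for tori 35-7 against Col-0 under water deficit, 421 on control medium and 1094 over both media. Without the 2 arrays of narrowest spread they were, in the same order, 312, 461, 2, 444, 153 and 958. Quantile normalization gave 319 for water deficit in Col-0 and 259 for the genotypes under water deficit. Fits on the 6 arrays compared, which have fewer samples, gave 39 and 8 for those 2 comparisons. With all probe sets tested there were 329 for water deficit in Col-0, 42 for the genotypes on control medium and 0 for the interaction. Median centring gave 0 for the interaction and 84 higher and 101 lower genes for water deficit in Col-0, beside 111 and 92. Under water deficit it gave 119 higher and 45 lower genes in tori 35-7, beside 82 and 54, and over both media 247 and 224, beside 194 and 282.

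With each array left out in turn the counts were 70 to 387 for water deficit in tori 35-7, 72 to 331 in Col-0, 0 to 2 for the interaction, 21 to 241 for the genotypes under water deficit, 11 to 233 on control medium and 246 to 988 over both media. Among the 133 other wall genes 0 to 8 were called over all settings and comparisons. The sign of AT1G60590 between genotypes on control medium, -0.04, differed in 2 of 22 alternatives, as 0.14 without the second Col-0 control array and 0.08 without the second tori 35-7 control array. No other member difference changed sign in the alternatives run.

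The replicate numbers name the samples, and the labels do not say whether they pair them across groups. With the replicate block 211 genes passed for water deficit in tori 35-7 and 216 in Col-0. Every group holds each replicate number once, so the block cannot change a difference and alters only the standard errors. For the AT2G15880 response in tori 35-7 minus that in Col-0 the SE was 0.32 with the block, beside 0.42 without it. The block ended the call of AT3G49220 (limma, adjusted p = 0.0559). The correlations of deviations of same-numbered arrays lay between -0.059 and 0.403, and those of differently numbered arrays between -0.326 and 0.195. Over 0.1 were 3 of 18 same-numbered and 2 of 36 differently numbered pairs, all between Col-0 water-deficit and tori 35-7 control arrays. Whether the numbers mark a shared batch was not tested.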
